A study of Mus musculus with 5 samples.

Results

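The collagen chain genes described here are all genes on the array whose symbol has the form Col, a number, a and a number, other than Col17a1, with at least 1 probe set annotated to that symbol alone. A probe set is a group of oligonucleotides on the array that reads 1 transcript, and for each gene the probe set with the highest mean over the 3 treatment groups was used. This gave 41 genes of 18193 named on the array. The median of all deposited values is a signal of 47.4, and the mean of 11 of the 41 chains reached it, or 26.8% of them against 59.6% of all genes. Signals are in the arbitrary units of the array and depend on each probe set, so they are compared between arrays and not between genes.

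The RNA came from B9 cells, a mouse line from cutaneous squamous cell carcinoma that carries HRAS-Q61L, an activating form of the RAS protein. All cultures were of this 1 line and genotype and received for 17 h either vemurafenib (PLX4032) at 1 µM (2 arrays), PLX7904 at 1 µM (2 arrays) or DMSO as the vehicle (1 array). Vemurafenib is a BRAF inhibitor known to activate the MAPK pathway paradoxically where RAS is mutant, and PLX7904 belongs to a class of BRAF inhibitors intended not to do so. The labels put the vehicle at 0.2% DMSO, whereas the volume of compound they state is 0.02% of the medium. The replicates are called biological in the labels, with nothing further on how the cultures were set up, and the p-values here reflect only how far these arrays differ among themselves. DMSO has a single array, on which both comparisons with the vehicle rest.

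Collagens are trimers of chains that wind into a triple helix. The chains are hydroxylated and folded in the endoplasmic reticulum, exported in large COPII carriers, trimmed outside the cell and crosslinked into fibrils, networks or filaments. Fibrillar collagens such as type I make up the dermis and are mainly products of fibroblasts. Type IV is the network of the basement membrane under epithelia, type VII forms the fibrils that anchor the epidermis to the dermis, and fibril-associated types such as XII sit on the surface of other fibrils. In skin, keratinocytes are a known source of type VII and of basement membrane chains.

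Among the fibrillar chains, 2 of 11 reached the median, Col5a1, whose product starts and limits the width of fibrils, and Col27a1, a cartilage-type chain. The chains of type I and type III, the main collagens of the dermis, were below it. Col1a1 read 7.75 with DMSO, 33.2 and 20.9 with vemurafenib and 18.9 and 18.5 with PLX7904. Col1a2 read 9.09 with DMSO, 35.8 and 45.2 with vemurafenib and 10.5 and 50.7 with PLX7904. The treated arrays of both genes lay above the DMSO array on the probe set used. The PLX7904 arrays of Col1a2 lay as far apart as 10.5 and 50.7, and neither gene was called without the limit. Another Col1a1 probe set (4.53 with DMSO, 3.11 to 14.8 treated) and another of Col1a2 (7.97 with DMSO, 0.646 to 10.2 treated) did not show this order. The remaining Col1a2 probe set (0.259 with DMSO, 0.947 to 7.96 treated) did. These chains are given as the main dermal collagens and were singled out after their values were seen. Col3a1 read between 14.4 and 24.8 on the 5 arrays. The 9 fibrillar chains below the median had mean signals from 5.16 to 37.2.

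Of the 6 type IV chains, Col4a1 and Col4a2, which together form the common trimer of basement membranes, reached the median on all 5 arrays. The other 4 type IV chains had mean signals from 21.1 to 42.7. Col7a1, the only chain of type VII, and Col18a1, the basement membrane chain that yields endostatin, also lay above the median on all 5 arrays. Col8a1, a chain of the short hexagonal networks known from vessels and the cornea, was above it as well, while its partner chain Col8a2 read 5.37 to 20.9. Of 9 fibril-associated chains 3 reached the median (Col12a1, Col16a1 and Col22a1), and of 5 type VI chains 1 did (Col6a2). None of the 3 transmembrane chains did (Col13a1, Col23a1 and Col25a1), nor did Col15a1 or Col26a1.

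The median was also the lower limit on signal for a gene to be tested. Just inside the limit were Col6a2 (mean signal 59.1), Col22a1 (59.6) and Col27a1 (66.8), and just outside were Col4a5 (42.7), Col13a1 (38.9) and Col6a3 (38.6). Of the 11 chains that reached the median, 8 lay above it on all 5 arrays, Col6a2 on 4, Col22a1 on 3 and Col27a1 on 2. Of the 30 below it, 22 were below on every array, and single values among the 30 ran from 0.547 to 65.9. In a fit without the limit, covering all 18193 genes, 0 of these 30 passed limma's test in any comparison. That fit called 3.61% of all genes with vemurafenib against DMSO, 0% with PLX7904 against DMSO and 5.38% between the compounds. At such shares 0 of 30 says little about these chains. At an unadjusted p under 0.05 there was 1 of the 30 with vemurafenib against DMSO (Col11a2) and 0 with PLX7904 against DMSO. Between the compounds there were 2 (Col6a1 and Col11a2). The unadjusted share over all genes was not computed for this fit.

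The bases before the start of the transcript are shown for Col8a1 and Col7a1, the chains of high signal that differed in opposite directions between the compounds; Col12a1 has no entry in the promoter table used. They are the 250 bases upstream of the RefSeq start on build GRCm38.p6, for Col8a1 at chr16:57754738-57754987 on the minus strand and for Col7a1 at chr9:108953336-108953585 on the plus strand. Capitals mark the letters of an SP1 box (GGGCGG) or a CCAAT box on either strand.
Col8a1: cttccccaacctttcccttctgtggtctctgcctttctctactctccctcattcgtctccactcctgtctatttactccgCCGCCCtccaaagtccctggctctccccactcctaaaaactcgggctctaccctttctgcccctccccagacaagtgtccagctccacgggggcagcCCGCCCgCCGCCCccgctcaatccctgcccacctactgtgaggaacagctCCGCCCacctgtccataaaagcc
Col7a1: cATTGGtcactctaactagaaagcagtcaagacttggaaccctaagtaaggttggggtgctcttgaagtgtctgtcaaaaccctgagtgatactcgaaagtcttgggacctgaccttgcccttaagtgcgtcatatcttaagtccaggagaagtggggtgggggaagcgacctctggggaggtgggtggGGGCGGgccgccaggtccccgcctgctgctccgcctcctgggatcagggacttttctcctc
The Col8a1 window holds 4 SP1 boxes, all on the opposite strand, that begin 170, 73, 66 and 23 bases before the start. The Col7a1 window holds 1 SP1 box, which begins 61 bases before the start, and 1 CCAAT box on the opposite strand, which begins 249 bases before it. SP1 boxes occur in 32.7% and CCAAT boxes in 33.8% of the 32851 promoter windows of this length. An AP-1 site (TGANTCA, in 6.75% of windows), a TATA box (TATAAA, 12.4%), an ETS core (GGAAGT, 19.7%) and a TEAD core (GGAATG, 12.6%) were also searched on both strands. None of these letters occur in either window. No letters of these 6 motifs overlap one another in the windows shown.

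**Figure D1:**
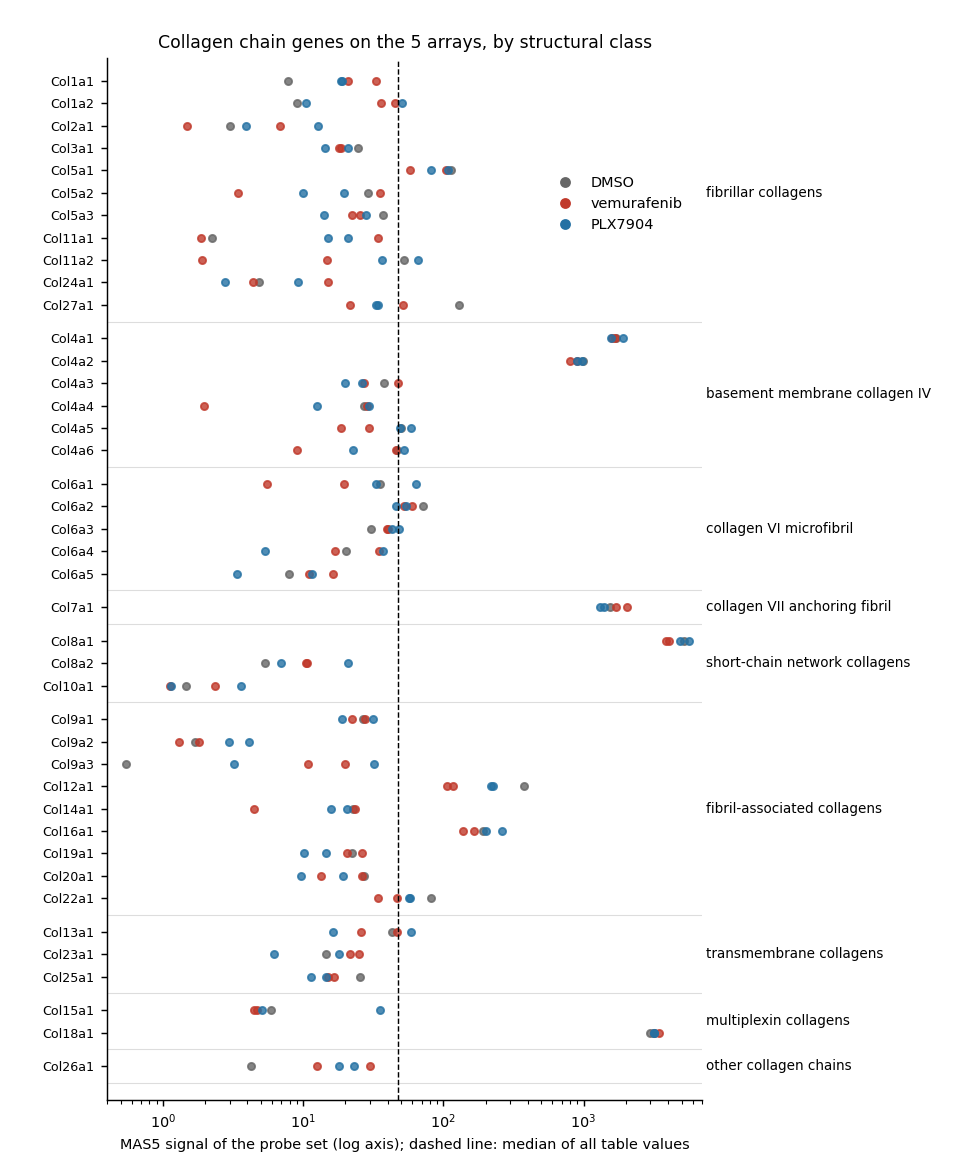
Signal of each of the 41 collagen chain genes on the 5 arrays (log axis), grouped by structural class; each point is 1 array and the dashed line is the median of all table values, 47.4. The 11 genes whose mean reached the line include Col4a1, Col4a2, Col7a1, Col8a1 and Col18a1, whose 5 points all lie far to the right of it.

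The comparison of vemurafenib with DMSO asked how the RAS-mutant cells respond to the first inhibitor. Col12a1 and Col8a1 fell, and no chain rose. Col12a1 was 3.34 times lower (95% interval 2.41 to 4.62; limma adjusted p = 0.000808) and Col8a1 was 1.3 times lower (1.12 to 1.51; limma adjusted p = 0.0358), in 2 arrays against 1. Of the 11 chains tested 2 fell, where 5.21% of all 10852 genes tested did. None of the 11 rose in limma's test, where 5.43% of all genes did. At an unadjusted p under 0.05 there were 3 of the 11, all lower (Col12a1, Col8a1 and Col27a1), against 25.9% of all genes. Col27a1 reached the limit only through its DMSO value, so that its lower treated values follow from how it was selected and support nothing. With median centring of each array 850 of all genes rose and 384 fell, against 589 and 565 here. In RNA from a whole culture, fewer cells of a type and less RNA per cell cannot be told apart. The median log2 difference of the 11 was -0.34, and that of all genes tested was -0.05. The median log2 signal of the 11 had an SD of 0.18 between replicate arrays. Their median difference was -0.19 after quantile normalization and -0.21 after cyclic loess. It was not tested. Of the 11, 9 were below 0, Col27a1 among them, where 6273 of all 10852 genes were.

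Col12a1 encodes the chain of type XII, a fibril-associated collagen of dense connective tissue. Its signal was 379.1 with DMSO, 106.6 and 116.3 with vemurafenib and 219.0 and 224.4 with PLX7904. The 5 arrays fell into 3 separate levels, with DMSO highest, PLX7904 between and vemurafenib lowest, and the replicates of either compound lay close together. Col8a1 read 5178 with DMSO, 3889 and 4080 with vemurafenib and 4869 and 5615 with PLX7904. Both vemurafenib arrays lay below the other 3, and the DMSO array lay between those of PLX7904.

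The fall of Col12a1 did not pass when all 4 of its probe sets were averaged (log2 -0.40, adjusted p = 0.662). That of Col8a1 did not pass without the limit on signal (adjusted p = 0.0863), with median centring of each array (0.0691), with limma's variance not tied to intensity (0.22), with the mean of all probe sets (0.15), without vemurafenib replicate 1 (0.0926), or with every probe set tested separately (0.0507).

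The other 9 chains did not pass. Col27a1 had the largest difference of these: it read 130.1 with DMSO, 51.6 and 21.5 with vemurafenib and 33.1 and 34.1 with PLX7904. It lay above the limit on the DMSO array and on 1 other, so it was tested mainly through the DMSO value, and the log2 difference of -1.85 had an interval from -3.22 to -0.48 (adjusted p = 0.0849). Without vemurafenib replicate 1 that difference was -2.43. Both values follow from how the gene was selected and support nothing, and its second probe set differed from DMSO by log2 0.09. Col22a1, a chain of tissue junctions, read 81.4 with DMSO, 33.9 and 46.4 with vemurafenib and 57.6 and 57.0 with PLX7904 (log2 -0.98, interval -2.05 to 0.10). Both vemurafenib arrays were the lowest of the 5.

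The basement membrane chains lay close to DMSO. Col4a1 read 1716 with DMSO, 1586 and 1670 with vemurafenib and 1570.1 and 1909 with PLX7904, and its groups overlapped (log2 -0.08, SE 0.13). Col4a2, whose gene lies head to head with that of Col4a1 on chromosome 8, read 989 with DMSO, 805 and 894 with vemurafenib and 896 and 980.1 with PLX7904 (log2 -0.22, SE 0.13). For this pair the interval ran from -0.36 to 0.20 and from -0.50 to 0.06. Col18a1 read 2959 with DMSO, 3179 and 3476 with vemurafenib and 3158 and 3174 with PLX7904 (log2 0.17, interval -0.04 to 0.37). All 4 treated arrays of Col18a1 lay above the DMSO array, and the difference did not pass.

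Col7a1 read 1540 with DMSO, 1703 and 2031 with vemurafenib and 1398 and 1315 with PLX7904. The vemurafenib arrays lay above the DMSO array and those of PLX7904 below it. The difference of vemurafenib from DMSO was log2 0.27 (interval -0.00 to 0.55, adjusted p = 0.195). Col16a1, a fibril-associated chain, read 192.3 with DMSO, 166.0 and 137.8 with vemurafenib and 202.0 and 259.9 with PLX7904, in the opposite order to Col7a1 (log2 -0.34, SE 0.24).

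Col5a1 read 112.6 with DMSO, 57.5 and 104.0 with vemurafenib and 81.7 and 108.1 with PLX7904. On this probe set the spread within a group was as wide as that between groups (log2 -0.52, SE 0.41). Col6a2, a chain of the type VI microfibril, read 71.3 with DMSO, 52.3 and 59.8 with vemurafenib and 54.4 and 45.6 with PLX7904 (log2 -0.33, SE 0.46). Its trimer partners were below the limit: Col6a1 read 35.3 with DMSO, 5.56 and 19.4 with vemurafenib and 33.0 and 64.2 with PLX7904, and Col6a3 read 30.4 to 48.0 on the 5 arrays. Col5a2, the partner of Col5a1, read 3.41 to 35.2, with both extremes in the vemurafenib group.

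**Figure D2:**
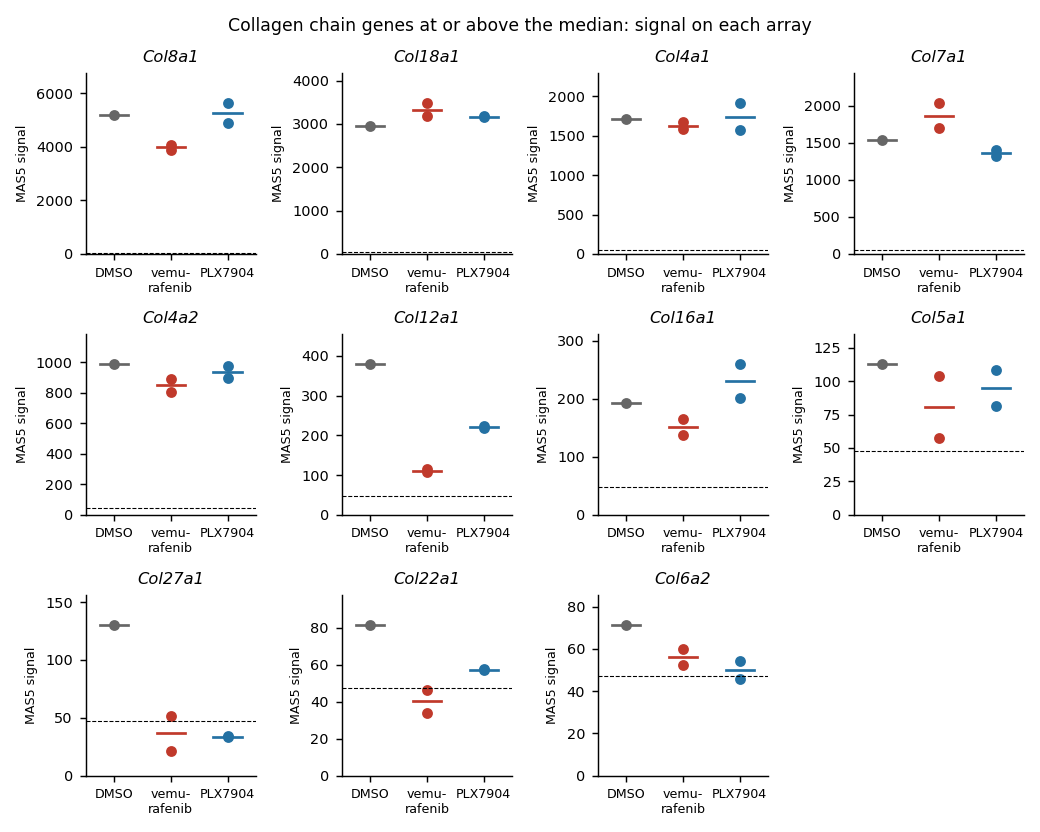
Signal of the 11 collagen chain genes whose mean reached the median, 1 panel a gene with its own axis from 0; points are single arrays, bars group means and the dashed line the median of all table values. Col12a1 shows 3 separate levels, Col8a1 is lowest with vemurafenib, and Col27a1 is high on the DMSO array alone.

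The comparison of PLX7904 with DMSO asked the same of the second inhibitor. No collagen chain passed, and neither did any other gene: 0% of the 10852 genes were called by limma in either direction, with 6.65% at an unadjusted p under 0.05. Of the 11 chains, 2 had an unadjusted p under 0.05, Col12a1 and Col27a1, both lower, the latter again selected through its DMSO value. Limma with robust fitting called 1 of all genes higher and 2 lower, and it called 0 of the 11 there and without the intensity trend. Col12a1 was 1.7 times lower (95% interval 1.23 to 2.35, adjusted p = 0.465). Its log2 difference of -0.77 was 0.15 when its probe sets were averaged. Col27a1 was 3.61 times lower (1.4 to 9.32, adjusted p = 0.55), from the same high DMSO value that entered the comparison with vemurafenib. Col8a1 differed from DMSO by log2 0.01, with an interval from -0.20 to 0.23. Col7a1 was at log2 -0.18 (interval -0.46 to 0.09). The median of the 11 chains, Col27a1 among them, was -0.18, and that of all genes tested -0.01. The former is about as large as the SD of the chains' median signal between replicate arrays (0.18). No lowering of the chains is read from it.

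The comparison of vemurafenib with PLX7904, at the same dose of 1 µM and time of 17 h, tests whether the compounds differ, and the DMSO signal does not enter the difference. With vemurafenib Col12a1 and Col8a1 were lower and Col7a1 was higher than with PLX7904. Col12a1 was 1.96 times lower (95% interval 1.5 to 2.56; limma adjusted p = 0.00518), Col8a1 1.31 times lower (1.16 to 1.48; adjusted p = 0.0101) and Col7a1 1.37-fold higher (1.17 to 1.6; adjusted p = 0.0147). Thus 2 of the 11 chains fell and 1 rose, where 6.87% of all genes tested fell and 6.43% rose. At an unadjusted p under 0.05 there were 4 of the 11, Col16a1 being the fourth, against 27.3% of all genes. With median centring 839 of all genes rose and 585 fell, against 698 and 745 here. Both vemurafenib arrays lay above both PLX7904 arrays for 2 chains (Col7a1 and Col18a1) and below them for 5, and the arrays overlapped for 4. Over all genes tested such a gap occurred in 23.8% with vemurafenib higher and in 32.2% with vemurafenib lower. The gap of Col18a1 was between 3179 and 3174, and its second probe set had both vemurafenib arrays below both of PLX7904.

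The call of Col7a1 did not pass without vemurafenib replicate 2 (log2 0.33, adjusted p = 0.115) or without PLX7904 replicate 2 (0.41, adjusted p = 0.0614). With variance not tied to intensity none of the 3 passed (adjusted p = 0.054 for Col12a1, 0.142 for Col8a1 and 0.137 for Col7a1). With the mean of all probe sets Col8a1 (adjusted p = 0.0686) and Col12a1 (0.432) did not. Over all genes 0.323% and 6.34% were called in those fits, against 13.3% in the main fit.

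The other 8 chains did not pass between the compounds. Col16a1 was 1.5 times lower with vemurafenib (interval 1.11 to 2.04, adjusted p = 0.0778). For Col4a1 the interval of the log2 difference ran from -0.32 to 0.14, for Col4a2 from -0.37 to 0.08 and for Col18a1 from -0.10 to 0.24. For the dimmer Col5a1, Col6a2, Col22a1 and Col27a1 the intervals were wide, that of Col27a1 running from -1.12 to 1.12. Of chains below the limit, the type IV chain Col4a5 read 49.9 with DMSO, 18.6 and 29.4 with vemurafenib and 49.3 and 58.8 with PLX7904. Both vemurafenib arrays were the lowest of its 5. Its trimer partner Col4a6 read 46.9 with DMSO, 45.7 and 9.03 with vemurafenib and 22.6 and 52.4 with PLX7904, and its groups overlapped.

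**Figure D3:**
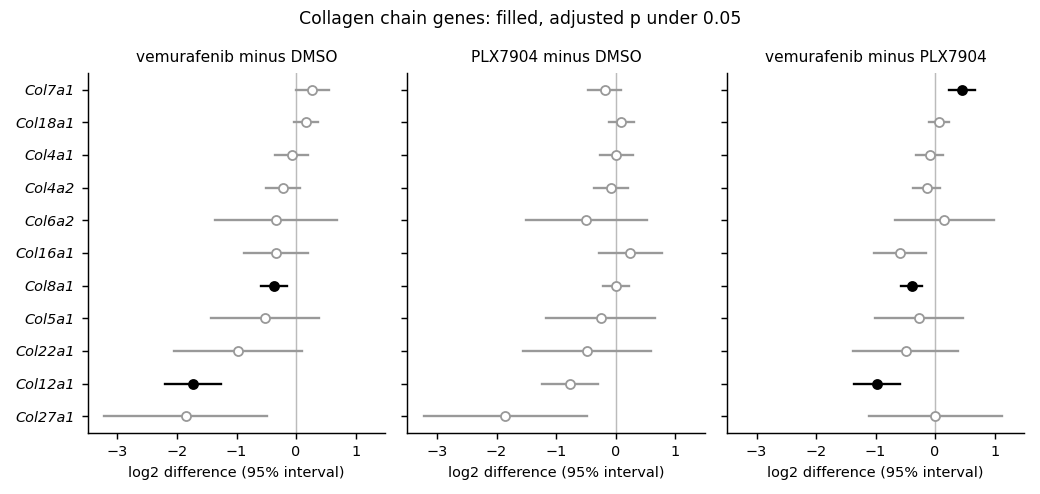
Log2 difference of the 11 tested collagen chain genes in the 3 comparisons, with the 95% interval from limma; filled black points have an adjusted p under 0.05. Col12a1 and Col8a1 are filled in both comparisons of vemurafenib, Col7a1 in that with PLX7904, and none in that of PLX7904 with DMSO.

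Several chains are read by more than 1 probe set, and these were compared in a fit of all 19755 single-symbol probe sets whose mean reached the median. For Col8a1 the 3 probe sets pointed the same way: with vemurafenib against PLX7904 they read log2 -0.39, -0.34 and -0.40 from the brightest to the dimmest, with adjusted p = 0.0165, 0.038 and 0.423. Against DMSO they read -0.38, -0.45 and -0.26, and the second passed (adjusted p = 0.0326). For Col12a1 the second probe set read 122.2 with DMSO, 60.8 and 66.1 with vemurafenib and 76.0 and 125.8 with PLX7904, so that both vemurafenib arrays were again the lowest. Its log2 difference from DMSO was -0.91, smaller than the -1.74 of the first, and did not pass (adjusted p = 0.191). The other Col12a1 probe sets were dim, with mean signals of 11.8 and 7.92, and differed from DMSO by 1.18 and -0.14.

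For Col27a1 the probe sets disagreed: the second read 42.3 with DMSO, 41.2 and 49.4 with vemurafenib and 39.6 and 73.8 with PLX7904, with no high DMSO value (log2 0.09 with vemurafenib, SE 0.54). For Col18a1 the second read 2433 with DMSO, 2211 and 2414 with vemurafenib and 2611 and 2582 with PLX7904, so that the sign of its difference from DMSO (-0.07) was opposite to that of the first (0.17). The second probe set of Col4a1 differed from DMSO by 0.21 (SE 0.18) where the first gave -0.08. The second probe set of Col6a2 read 60.3 with DMSO, 9.0 and 39.0 with vemurafenib and 62.5 and 73.0 with PLX7904, unlike the first. That of Col5a1 read 70.1 with DMSO, 26.1 and 46.1 with vemurafenib and 65 and 88.2 with PLX7904. Both vemurafenib arrays were the lowest there, unlike on the first. The vemurafenib difference was log2 -0.94 from DMSO (limma adjusted p = 0.302) and -1.05 from PLX7904 (0.15), and neither passed. Col7a1, Col4a2 and Col16a1 have 1 probe set each and no such check.

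**Figure D4:**
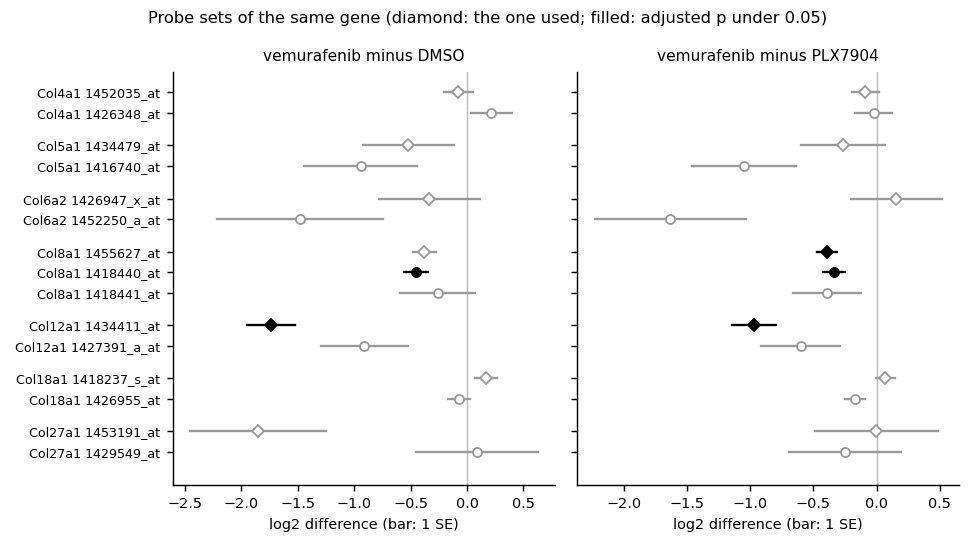
Log2 difference of the separate probe sets of 7 collagen chain genes, for vemurafenib against DMSO and against PLX7904; bars are 1 SE, diamonds the probe set used for the gene, and filled symbols an adjusted p under 0.05 over all probe sets. The 3 probe sets of Col8a1 lie on the same side of 0 in both panels, and the 2 of Col27a1 are apart in the first.

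Genes that make, export, trim, crosslink and bind collagen were examined as 8 lists. They held 86 genes on the array, and 53 reached the median signal. Of these 53, 10 rose and 7 fell with vemurafenib against DMSO, where 5.43% of all genes tested rose and 5.21% fell. Against PLX7904 10 rose and 5 fell, where 6.43% of all genes rose and 6.87% fell. With PLX7904 against DMSO limma called 0 of 53, and 5 had an unadjusted p under 0.05. The median log2 difference of the 53 was 0.10 with vemurafenib against DMSO, and that of all genes tested was -0.05. Without limma's intensity trend 13 of the 15 partner genes named here lost their call against DMSO, and 12 of 13 theirs against PLX7904. Over all genes that fit called 0.396% against DMSO and 0.323% against PLX7904, where the main fit called 10.6% and 13.3%.

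Of 14 genes of chain folding and modification 1 rose and 2 fell with vemurafenib against DMSO, where 5.43% and 5.21% of all genes did. Their median was 0.06. Ppib, a proline isomerase that speeds the folding of the helix, rose from 9201 with DMSO to 12085 and 11917 with vemurafenib, and read 10913 and 10280.4 with PLX7904. It rose 1.3-fold (95% interval 1.17 to 1.45, adjusted p = 0.0079). Colgalt1, which adds galactose to hydroxylysine of collagen, read 1442 with DMSO, 984 and 963 with vemurafenib and 1464 and 1316 with PLX7904, and fell 1.48 times (1.24 to 1.76, adjusted p = 0.0115). P3h4, a partner of the collagen hydroxylases, was 1.25 times lower (1.11 to 1.42, adjusted p = 0.0287). Colgalt1 and P3h4 were also lower than with PLX7904, by 1.42 and 1.26 times, whereas Ppib did not pass there (adjusted p = 0.0682). The prolyl hydroxylase subunits P4ha1, P4ha2 and P4hb did not pass against DMSO, at log2 0.03, 0.26 and 0.13. Colgalt1 and P3h4 lost their call against DMSO with the mean of all probe sets, and P3h4 also without either vemurafenib array, with median centring and without the limit on signal. The call of P3h4 against PLX7904 ended without vemurafenib replicate 1 (log2 -0.31, adjusted p = 0.0626).

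Of 7 genes of procollagen export 3 rose with vemurafenib against DMSO and 0 fell, and the same 3 rose against PLX7904. Of all genes tested, 5.43% rose in the first comparison and 6.43% in the second. Sec24d, a cargo adaptor of the COPII coat, read 774 with DMSO, 1475 and 1628 with vemurafenib and 752 and 997 with PLX7904. It rose 2.0-fold against DMSO (95% interval 1.56 to 2.55, adjusted p = 0.00376) and 1.79-fold against PLX7904 (1.46 to 2.18). Creb3l2, a membrane-bound transcription factor that induces COPII genes in cartilage, read 400.1 with DMSO, 633 and 807 with vemurafenib and 453 and 470.0 with PLX7904. It rose 1.78-fold (1.39 to 2.28, adjusted p = 0.0103). The third gene, Sec23a of the inner coat, rose by log2 0.45 and was named after its value was seen. Mia3 (TANGO1), the receptor that loads procollagen into the carriers, did not pass (log2 0.10, SE 0.14). The call of Creb3l2 against PLX7904 ended without vemurafenib replicate 2 (log2 0.45, adjusted p = 0.0742) or PLX7904 replicate 1 (0.60, adjusted p = 0.0504).

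Of 4 genes of propeptide processing 1 fell with vemurafenib against DMSO, where 5.21% of all genes did. Pcolce, which enhances removal of the C-propeptide, read 294.2 with DMSO, 154.4 and 165.5 with vemurafenib and 203.1 and 155.6 with PLX7904, so that all treated arrays lay below DMSO. It fell 1.82 times (95% interval 1.27 to 2.61, adjusted p = 0.0409), a call that ended after quantile normalization, cyclic loess, median centring, with the replicate block, without the limit on signal, with the mean of all probe sets and without vemurafenib replicate 1. The propeptide protease Bmp1 did not pass (log2 0.07, SE 0.16). Of 3 crosslinking genes, Loxl4, Pxdn and Tgm2, limma called 0 in any comparison. Over all genes it called 10.6% with vemurafenib against DMSO, 0% with PLX7904 against DMSO and 13.3% between the compounds. Of the 3, 1 had an unadjusted p under 0.05 with vemurafenib against DMSO (Pxdn, log2 0.24), where 25.9% of all genes did. These counts are too small to set apart from those shares. Against PLX7904 the protease Furin was 1 gene of the processing list that rose (log2 0.50, adjusted p = 0.015), where 6.43% of all genes did. It was named after its value was seen.

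Both chains of the α2β1 integrin, a collagen receptor of keratinocytes, rose with vemurafenib, as 2 of 3 receptor genes tested. The share of all genes that rose was 5.43% against DMSO and 6.43% against PLX7904. Itga2 read 245.2 with DMSO, 683 and 567 with vemurafenib and 264.9 and 335 with PLX7904. It rose 2.52-fold against DMSO (95% interval 1.89 to 3.36, adjusted p = 0.00191) and 2.08-fold against PLX7904 (1.64 to 2.63). Itgb1 rose 1.33-fold against DMSO (1.16 to 1.52, adjusted p = 0.0168), a call that ended without vemurafenib replicate 2 (log2 0.34, adjusted p = 0.0711) and with the mean of all probe sets (0.40, adjusted p = 0.316). Ddr1, a collagen receptor kinase, did not pass (log2 -0.24, SE 0.10).

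Of 8 basement membrane partners 2 rose with vemurafenib against DMSO, the laminin-332 chains Lama3 and Lamb3, and none fell. Over all genes 5.43% rose and 5.21% fell. Lama3 read 5285 with DMSO, 12717 and 12149 with vemurafenib and 5664 and 5748 with PLX7904, a rise of 2.35-fold (95% interval 2.1 to 2.63, adjusted p = 8.54e-06). When its probe sets were averaged, the rise against DMSO was not called (adjusted p = 0.0571) and the difference from PLX7904 turned from 1.12 to -0.17 on the log2 scale. Lamb3 rose 2.31-fold against DMSO (2.01 to 2.65) and 2.08-fold against PLX7904. The laminin chains Lamb1 and Lamc1 and the proteoglycans Agrn and Hspg2 did not pass (log2 0.26, 0.17, 0.23 and -0.52). Of 8 fibril partners 0 rose and 3 fell: Thbs1, Thbs2 and Fn1, where 5.21% of all genes fell. The median of the 8 was -0.36 and that of all genes tested -0.05. Thbs1, a thrombospondin of the cell surface and matrix, fell 2.19 times against DMSO (95% interval 1.88 to 2.55, adjusted p = 0.000109). Thbs2, a thrombospondin that affects fibril assembly, read 1549 with DMSO, 1141 and 1175 with vemurafenib and 1651 and 1678 with PLX7904. It was 1.34 times lower than DMSO (95% interval 1.14 to 1.57, adjusted p = 0.0279), a call that ended without either vemurafenib array and with median centring, and 1.44 times lower than PLX7904 (1.26 to 1.63, adjusted p = 0.00301). Fn1, fibronectin, was outside the rule for naming and is given to complete the count (log2 -0.36). Of 6 genes listed as collagen-degrading proteases and inhibitors 2 rose and 1 fell with vemurafenib, against both DMSO and PLX7904. Mmp1b, a matrix metalloproteinase, and the inhibitor Timp1 rose, and the inhibitor Timp3 fell. Over all genes 5.43% rose and 5.21% fell against DMSO, and 6.43% and 6.87% against PLX7904. Timp3 read 3361 with DMSO, 738 and 1119 with vemurafenib and 2362 and 2358 with PLX7904, in the same order of groups as Col12a1. It fell 3.69 times against DMSO (95% interval 2.76 to 4.93, adjusted p = 0.000212). Mmp1b rose 2.98-fold (2.45 to 3.63) and Timp1 1.31-fold (1.15 to 1.49) against DMSO. Without vemurafenib replicate 1 the call of Timp1 ended against DMSO (log2 0.36, adjusted p = 0.0787) and against PLX7904 (0.33, adjusted p = 0.0564). The collagenases Mmp13 and Mmp14 did not pass (log2 0.10 and -0.24).

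**Figure D5:**
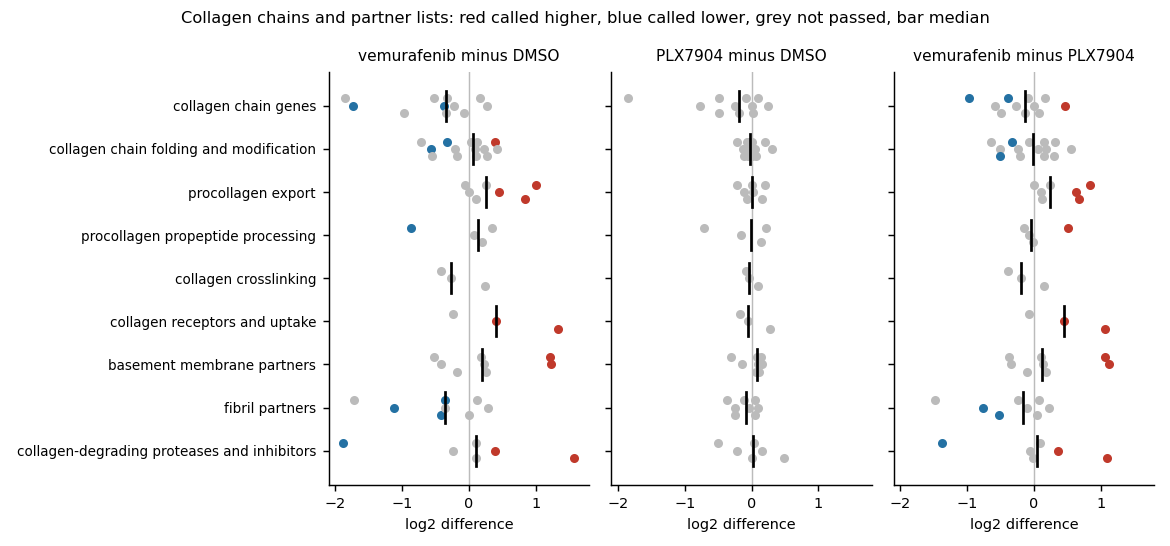
Log2 differences of the collagen chains and of the 8 lists of partner genes in the 3 comparisons; points are single genes, red called higher, blue called lower, grey not passed, and the black bar is the median of each list. Export and receptor genes called with vemurafenib lie to the right of 0, called fibril partners to the left, and no gene is called with PLX7904 against DMSO.

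All 10 keratinocyte and epithelial markers, among them Krt5, Krt14, Trp63 and Epcam, were above the median signal, matching the labelled epithelial origin. Their summed signal was 95055 with DMSO, 111983 and 110930.2 with vemurafenib and 100954 and 98821 with PLX7904. The sum was highest with vemurafenib, but its members did not move together: against DMSO limma called Krt8, Krt18, Epcam and Col17a1 higher and Dsp lower (adjusted p = 0.047), and Cdh1 was at log2 -0.21 and did not pass. Against PLX7904 Krt8, Krt18, Epcam and Itgb4 were higher and Krt5 lower (adjusted p = 0.0175). Over all genes 5.43% rose and 5.21% fell against DMSO, and 6.43% and 6.87% against PLX7904. The part of the epithelial markers in the collagen results was not tested. Of 10 fibroblast markers 2 were above the median (Pdgfra and Fbln1), and Dcn, Lum, Thy1, Fap and Pdgfrb were below it. Their summed signal was 671 with DMSO, 725 and 711 with vemurafenib and 544.1 and 689.5 with PLX7904. The markers above the median went opposite ways in that sum. Pdgfra, a growth factor receptor of mesenchymal cells, read 83.3 with DMSO, 263.7 and 231.4 with vemurafenib and 137.8 and 132.3 with PLX7904. It rose 2.89-fold with vemurafenib against DMSO (95% interval 2.0 to 4.16, adjusted p = 0.00327). Fbln1, a matrix protein, read 461.6 with DMSO, 368.5 and 353.3 with vemurafenib and 333.4 and 448.9 with PLX7904, and its difference of log2 -0.35 with vemurafenib from DMSO did not pass (adjusted p = 0.271). The part of these markers in the collagen results was not tested. Of 6 smooth muscle and pericyte markers 2 were above the median (Cspg4 and Des), and the summed signal was 269.5 with DMSO, 144.4 and 151.3 with vemurafenib and 213.9 and 164.7 with PLX7904. These sums were lowest with vemurafenib, as Col12a1 was, but the members did not move together. Limma called no marker of the list, where it called 10.6% of all genes against DMSO and 13.3% between the compounds. Des read 113.4 with DMSO, 24.4 and 41.6 with vemurafenib and 57.7 and 15 with PLX7904. Des reached the median mainly through its DMSO value, so its lower treated values follow from how it was selected and support nothing. Cspg4 read 63.7 with DMSO, 29.6 and 3.35 with vemurafenib and 63.3 and 80.4 with PLX7904. Myh11, below the median, went the other way, at 13.9 with DMSO, 28.0 and 33.7 with vemurafenib and 6.03 and 10.5 with PLX7904. The part of these markers in the collagen results was not tested. The endothelial sums, with 1 of 6 markers above the median (Pecam1), were 203.3 with DMSO, 94.3 and 153.4 with vemurafenib and 107.4 and 225.3 with PLX7904, and their part was not tested either. Pecam1 read 82.6 with DMSO, 6.15 and 35.8 with vemurafenib and 9.27 and 74 with PLX7904. Its mean of 48.4 reached the median mainly through the DMSO value, so its lower treated values support nothing. Of 6 chondrocyte markers Sox9 was above the median, with sums from 1031 to 1334, and of 6 immune markers Cd68 and Csf1r were, with sums from 244.6 to 301.4.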

How the data were processed

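RNA of 5 cultures was measured on 3' expression arrays, 1 array a sample. The deposited intensity values are linear MAS5 signals, per the submitters' processing notes, which give no version. In the deposited table the mean of each array after trimming 2% of values at either end was 500, and array medians ran from 44.1 to 51.9. Detection calls were not used here, and the small number of arrays limits the precision. Of 45101 probe sets, 34945 carry 1 gene symbol in the platform annotation, 932 carry several and were not named, and 64 controls were left out.

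Signals were taken as log2(signal + 3.34), the pseudocount being the 10th percentile of all values, so differences of dim genes are understated. For each of 18193 genes the probe set of highest signal, averaged over the 3 group means, was kept, and the 10852 genes whose mean reached the median of all values (47.4) were tested. One limma 3.58.1 model (R 4.3.3; eBayes with intensity trend) held all 5 arrays, with 2 residual and 8.27 prior degrees of freedom, and DMSO, with 1 array, took its variance from the treated groups. P-values were adjusted by Benjamini-Hochberg within each comparison at 0.05, and intervals are 95%. The model was tested on simulated data. The comparisons with DMSO share its array, and both comparisons of vemurafenib share the vemurafenib arrays.

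The collagen genes, their classes, the partner lists and the markers were chosen with earlier results of these data known. All chains that reached the limit were named; from each partner list up to 2 called genes at either end of the difference of vemurafenib from DMSO were. Other pseudocounts, limits, normalizations, variance models, probe set rules and thresholds, a replicate block and leaving out each array were tried. The labels do not say whether replicate numbers pair the cultures. Across genes the replicate differences of the compounds were not correlated (r = -0.007), which cannot show whether the cultures were paired. Promoters came from the RefSeq table on build GRCm38.p6, where 9 of the 11 tested chains had an entry.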

Additional observations from a re-analysis of the deposited data

How the results depend on the processing

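The count of collagen chains that fell with vemurafenib against DMSO, 2 as reported, was 1 without the limit on signal, 1 with the limit at the 75th percentile (where Col12a1 was not tested), 1 with median centring, 1 without the intensity trend, 0 with the mean of all probe sets and 1 at an adjusted p of 0.01. Against PLX7904 the count of 2 that fell was 1 with the limit at the 75th percentile, 0 without the trend, 0 with the mean of all probe sets and 1 at an adjusted p of 0.01. The 1 chain that rose there was 0 without the trend and 0 at an adjusted p of 0.01, and ranged from 0 to 1 when each array was left out. Calls of vemurafenib over all genes changed too. Against DMSO 10.6% were called as reported, 3.61% without the limit, 16.2% with the limit at the 75th percentile and 11.4% with median centring. The share was 0.396% without the trend, 4.26% with the mean of all probe sets and 3.97% at an adjusted p of 0.01. Against PLX7904 it was 13.3% as reported, 19.4% with the stricter limit, 0.323% without the trend, 6.34% with averaged probe sets and 5.68% at 0.01. The median log2 difference of the chains was -0.076 with vemurafenib against DMSO with the limit at the 75th percentile. For PLX7904 against DMSO the median, -0.18 as reported, was 0.013 with that limit and 0.003 when probe sets were averaged. Among the 11 tested chains and the 15 partner genes chosen by rule, which were the genes run under the alternatives, the called difference of Lama3 between the compounds reversed, at -0.17 when its probe sets were averaged. The cause was not tested, beyond the smaller number of genes tested under the stricter limit. With the replicate block the counts stayed at 0 and 2 against DMSO and at 1 and 2 between the compounds, and Pcolce lost its call (-0.80, adjusted p = 0.0703). Testing each probe set separately was added after seeing the data. With 2 arrays a group and 1 of DMSO, differences of chains near the limit have wide intervals.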

Other observations

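Col17a1, a transmembrane collagen of hemidesmosomes that is not among the 41 chains, read 6867 with DMSO, 8558 and 8810 with vemurafenib and 7115 and 7792 with PLX7904. It rose 1.26-fold with vemurafenib against DMSO (95% interval 1.12 to 1.43; limma adjusted p = 0.0243), and the difference between the compounds did not pass (1.17-fold, adjusted p = 0.0502). The direction is opposite to that of Col12a1 and Col8a1.

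A list of 33 genes with a collagen-like domain outside the collagen chains was chosen with the data known, and 5 of its 31 genes on the array reached the limit. Scara5, a scavenger receptor that binds ferritin, read 134.4 with DMSO, 50.5 and 29.4 with vemurafenib and 121.5 and 138.4 with PLX7904. It was 3.28 times lower than DMSO (95% interval 1.76 to 6.12; adjusted p = 0.024) and 3.17 times lower than PLX7904 (1.9 to 5.27; adjusted p = 0.00884). The other 4, Fcna, Fcnb, Emilin2 and C1qtnf12, did not pass in any comparison. Thus 1 of the 5 fell with vemurafenib, where 5.21% of all genes tested fell against DMSO and 6.87% against PLX7904.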
